A study of Mus musculus with 4 samples.

Results

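The genes described here encode the nuclear part of the mitochondrial respiratory chain and ATP synthase. They were taken from the deposited gene count table by symbol (Nduf a, b, c, s and v series, Uqcr, Cox4 to Cox8, Atp5, the Sdh genes, Cyc1 and Cycs), with a mean of at least 50 counts over the 4 libraries. The symbols matched 96 genes, and 87 reached the minimum, of 45706 genes in the table. Of these 87 members, 79 are counted as protein-coding subunits: 36 of complex I, 4 of complex II, 9 of complex III, 15 of complex IV and 15 of complex V. The others are Cycs (cytochrome c, the soluble carrier between complexes III and IV), Atp5s (a coupling factor that is not a structural subunit) and 6 processed pseudogenes that carry subunit names. Ndufa4l2 is counted in complex I by its symbol alone, while its paralog Ndufa4 is counted in complex IV. The rule used expression level only as a minimum, over both groups together, and no comparison between the groups. It was chosen with earlier results of these data known.

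The cells were V6.5, a mouse embryonic stem cell line. Lentivirus had brought in a doxycycline-inducible Cas9 with GFP, a puromycin resistance gene and guide RNAs, which the labels describe as aimed at Klf4 alone or at Klf2, Klf4 and Klf5 together, and clones were picked after puromycin selection. The 0 h group (2 libraries, A and B, genotype label KLF WT) was sampled without the 24 h of doxycycline, and the 24 h group (2 libraries, A and B, genotype label KLF KO) after it. Which guides a given library carried, and whether the 0 h cells were the same clones, is not clear from the labels. All 4 libraries came from cells grown on irradiated feeders with 15% serum and 1000 U/ml LIF, and their culture label names 2i (MEK inhibitor at 1 µM and GSK3 inhibitor at 3 µM). Time in culture, doxycycline, loss of KLF protein and Cas9 cutting differ together between the groups and cannot be told apart.

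Electrons from NADH enter the chain at complex I and those from succinate at complex II, which is also an enzyme of the citric acid cycle. They pass through complex III and cytochrome c to oxygen at complex IV, and complex V (ATP synthase) uses the resulting proton gradient to make ATP. Most subunits are encoded in the nucleus and a few of complexes I, III, IV and V in mitochondrial DNA. Some complex IV subunits exist as isoforms from separate genes, a ubiquitous form and a form known from muscle, lung or testis. Mouse embryonic stem cells kept in 2i are known to use oxidative phosphorylation beside glycolysis.

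The libraries held 46031578 to 52412844 counts. Transcripts of the guides' target genes were present in all 4 libraries: Klf4 at 236 to 331 CPM (counts scaled to library size by TMM), Klf2 at 123 to 232 and Klf5 at 216 to 431. None of these was past edgeR's test, and small deletions need not alter a transcript's level, so they do not check the labels. Replicate A at 0 h differed from the other libraries, with a deviation that followed GC content, and fold changes without it are given beside those with all 4 libraries. Of 8 stem cell markers, all were detected. In edgeR 3 fell (Pou5f1, Zfp42 and Utf1) and 0 rose, where 2.65% of all genes tested fell and 4.15% rose. The 3 had log2 fold changes of -0.54, -0.45 and -0.94, and of -0.38, -0.41 and -0.58 without 0 h A. The other 5 were not called: Sox2 at 0.075, Nanog at -0.29, Esrrb at 0.014, Tdgf1 at -0.12 and Dppa5a at 0.16. Without 0 h A these 5 were at 0.12, -0.42, 0.21, -0.22 and 0.066. The summed level of the 8 was 4461 and 4365 CPM at 0 h and 3901 and 3958 at 24 h. Of 14 feeder fibroblast markers, 11 were tested, and in edgeR 1 (Pdgfrb) fell (-1.02, and -0.83 without 0 h A) and 0 rose. The other 10 were not called and ran from -0.43 (Thy1) to 0.38 (Acta2). The median of the 11 was -0.068, and 0.16 without 0 h A. The summed level of the 14 was 168 to 234 CPM at 0 h and 183 to 189 at 24 h, and Lum had 0 counts in 3 libraries. The part of either cell population in the results below was not tested. In bulk RNA, fewer cells of a type and less RNA per cell cannot be told apart.

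Promoter sequence was available for 66 of the 87 members, from RefSeq on GRCm38.p6 (250 bases before to 50 after each start). Cox6a2, Ndufa4l2, Ndufs1 and Cox4i1 were among the members without it. Promoter sequence is shown because factors that bind these motifs are known regulators of respiratory chain genes. The NRF1 motif (GCGCATGCG, either strand; the letters overlap their own reverse complement) was in promoters of 8 members (12.1%), against 1.95% of all 27025 gene symbols with a promoter of that length. In 6 of the 8 it lay wholly before the start. The following windows are written 5′ to 3′ along the gene, with the motif in capitals.
Cycs: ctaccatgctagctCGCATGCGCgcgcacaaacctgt
Cox6a1: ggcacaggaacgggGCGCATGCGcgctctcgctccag
Atp5k: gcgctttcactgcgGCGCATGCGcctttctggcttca
Ndufa11: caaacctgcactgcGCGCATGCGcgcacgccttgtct
The Cycs window is at chr6:50566608-50566644 (minus strand), that of Cox6a1 at chr5:115349098-115349134 (minus), that of Atp5k at chr5:108434427-108434463 (minus) and that of Ndufa11 at chr17:56717688-56717724 (plus). A match describes letters only, and no binding was measured here. The members met a minimum count, while the shares over all symbols were not limited to expressed genes.

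The YY1 motif (AAGATGGCG, either strand) was in promoters of 7 members (10.6%), against 1.64% of all symbols. In 6 of the 7 its ATG was the annotated start codon of the member itself, so the letters ATGGCG of the motif are there the start of the coding sequence, and its AAG lies just before it. These short windows are shown for that overlap, with the motif in capitals.
Ndufs4: caggAAGATGGCGgcgg
Ndufs7: ggccAAGATGGCGgcgc
Ndufa9: ggagAAGATGGCGgccg
They lie at chr13:114388047-114388063 (minus strand), chr10:80249469-80249485 (plus) and chr6:126849103-126849119 (minus). The ETS motif (CCGGAAG, either strand), which GABPA recognises, was in promoters of 15 members (22.7%), against 9.93% of all symbols. Members with a motif showed no common direction at 24 h. Their log2 fold changes ran from -0.52 to 0.06 with the NRF1 motif (median -0.14), from -0.52 to 0.26 with the ETS motif (median -0.04) and from -0.47 to 0.27 with the YY1 motif (median 0.00). Without 0 h A they ran from -0.33 to 0.22 (median -0.086), from -0.21 to 0.20 (median -0.028) and from -0.19 to 0.12 (median -0.050).

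For most genes of the respiratory chain the difference between 24 h and 0 h did not pass the test. Of the 87 members, 1 rose (Cox6a2) and 1 fell (Ndufa4l2) in edgeR (quasi-likelihood, Benjamini-Hochberg, threshold 0.05). That is 1.15% in each direction, while 4.15% of all 18005 genes tested rose and 2.65% fell (6.8% in all). Cox6a2 reached the 50-count minimum only through its 24 h counts (41 and 33 at 0 h, 93 and 86 at 24 h). Its place among the members was thus not independent of its rise. After correction for GC and length the shares over all genes were 12.0% and 15.9%, so the larger direction changed. DESeq2 called 2 members higher and 2 lower (2.3% each; all genes 5.77% and 5.87%), and limma voom 1 and 1 (all genes 3.87% and 2.16%). The log2 fold change lay within 0.5 of 0 for 81 members (93.1%), against 75.1% of all genes tested. It reached 1 in either direction for 2 members, and for 1350 of the 18005 genes tested. The genes tested had to meet a lower minimum count than the members. Their median SE was 0.17, against 0.12 for the members, so these shares do not compare like with like. The median log2 fold change was -0.039 for the members and -0.0067 for all genes tested, and -0.020 and -0.0016 without 0 h A. An unadjusted p under 0.05 in edgeR was reached by 11 members, and by 4642 of the 18005 genes tested. These fits cannot show small changes: the 95% interval of a member's log2 fold change had a median half-width of 0.29.

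The summed level of the 79 subunits was 13502 CPM in 0 h A, 12036 in 0 h B, 11669 in 24 h A and 11644 in 24 h B. Both 24 h sums were below both 0 h sums, but the 0 h libraries differed from each other by more than 0 h B differed from 24 h. The members took 1.32% and 1.22% of all counts at 0 h and 1.21% and 1.2% at 24 h. With 2 libraries against 2, an exact permutation test of such a sum cannot reach 0.05, so none is given.

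**Figure D1:**
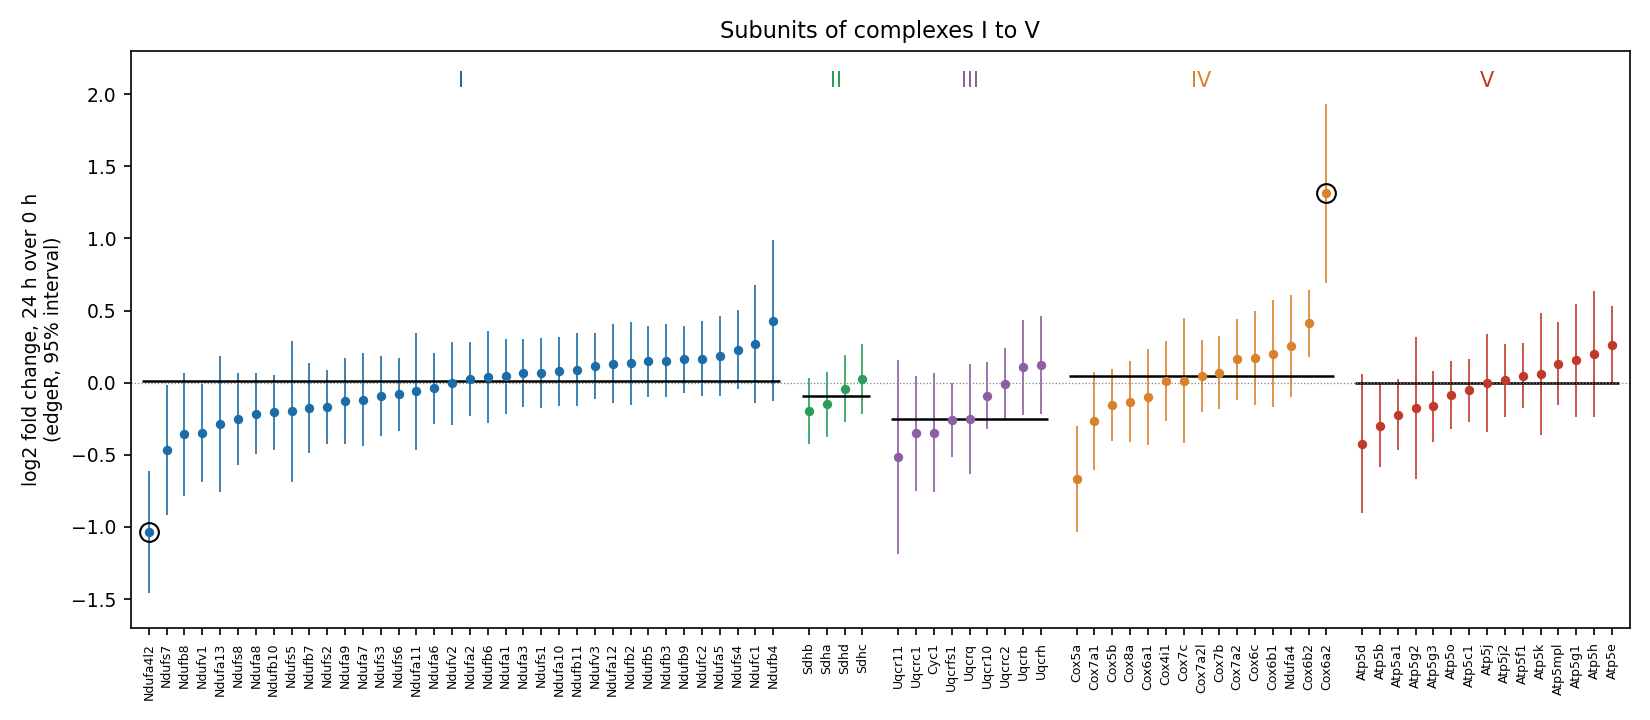
Log2 fold change (24 h over 0 h, y axis) of each of the 79 subunits, ordered within complexes I to V, with edgeR's 95% interval; black lines are the medians and rings mark members past the test. Ndufa4l2, grouped with complex I by its symbol, and Cox6a2 in complex IV carry the rings, and 75 of the 79 points lie within 0.5 of 0.

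Cox6a2, on chromosome 7 (128205435 to 128206387, minus strand, GRCm38), encodes the heart and muscle form of a complex IV subunit. It had 41 and 33 counts at 0 h (A, B) and 93 and 86 at 24 h, or 0.810, 0.679, 1.87 and 1.84 CPM. Both 24 h libraries were above both 0 h libraries, at 0.745 ± 0.0930 CPM at 0 h and 1.85 ± 0.0240 at 24 h (SD, n = 2). The log2 fold change was 1.31 (SE 0.26, 95% interval 0.69 to 1.93; edgeR adjusted p = 0.0332). It was 1.45 without 0 h replicate A and 1.35 after correction for GC and length. Without either 24 h library it was 1.28 and 1.31 and no longer past edgeR's test (adjusted p = 0.118 and 0.108). The level was low even at 24 h. Its ubiquitous counterpart Cox6a1 was at 374, 281, 302 and 310 CPM, with overlapping groups, and per kb of transcript Cox6a2 was 0.182% and 0.203% of Cox6a1 at 0 h and 0.520% and 0.498% at 24 h.

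The coding parts of this pair are 62.5% identical, with no identical run longer than 12 bases, so a read of 50 bases from one coding part does not match the other. The last 50 coding bases before the stop codon are shown for that reason, with the bases of Cox6a2 that differ from Cox6a1 in capitals.
Cox6a1: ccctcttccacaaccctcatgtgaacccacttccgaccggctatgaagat
Cox6a2: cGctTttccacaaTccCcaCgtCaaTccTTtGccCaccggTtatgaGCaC
They differ at 15 of the 50 positions. An exon of Itgad overlaps Cox6a2 by 70 bases on the other strand, and Itgad had 0 CPM in 3 libraries and 0.02 in the other.

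Ndufa4l2, on chromosome 10 (127514967 to 127517154, plus strand), encodes a paralog of Ndufa4 known to be induced in low oxygen. It fell, from 25.5 and 18.5 CPM at 0 h to 10.8 and 10.7 at 24 h, and the groups did not overlap. The means were 22.0 ± 4.99 and 10.7 ± 0.0574 CPM (SD, n = 2). The log2 fold change was -1.03 (SE 0.18, 95% interval -1.46 to -0.61; edgeR adjusted p = 0.0226). It was -0.78 without 0 h replicate A, and after correction for GC and length -0.77. With either 24 h library left out the adjusted p in edgeR was 0.0347 and 0.0402. Ndufa4 itself, now counted as a complex IV subunit, was at 106, 143, 145 and 152 CPM. Its 24 h values were higher by a log2 fold change of 0.26, which did not pass edgeR's test (adjusted p = 0.321) and was 0.056 without 0 h A. Per kb of transcript Ndufa4l2 was 15.7% and 8.44% of Ndufa4 at 0 h and 4.86% and 4.59% at 24 h. Exons of Ndufa4l2 and Shmt2 overlap by 32 bases on opposite strands. Shmt2 was at 424, 295, 270 and 265 CPM and did not pass the test (edgeR adjusted p = 0.166).

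The stretch of 50 coding bases before the stop codon shows how far Ndufa4l2 has moved from Ndufa4, with differing bases in capitals.
Ndufa4: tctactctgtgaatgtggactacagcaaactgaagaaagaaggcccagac
Ndufa4l2: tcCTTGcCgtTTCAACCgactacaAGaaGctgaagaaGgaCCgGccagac
They differ at 19 of the 50 positions, and 70.1% of the aligned coding bases are identical.

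**Figure D2:**
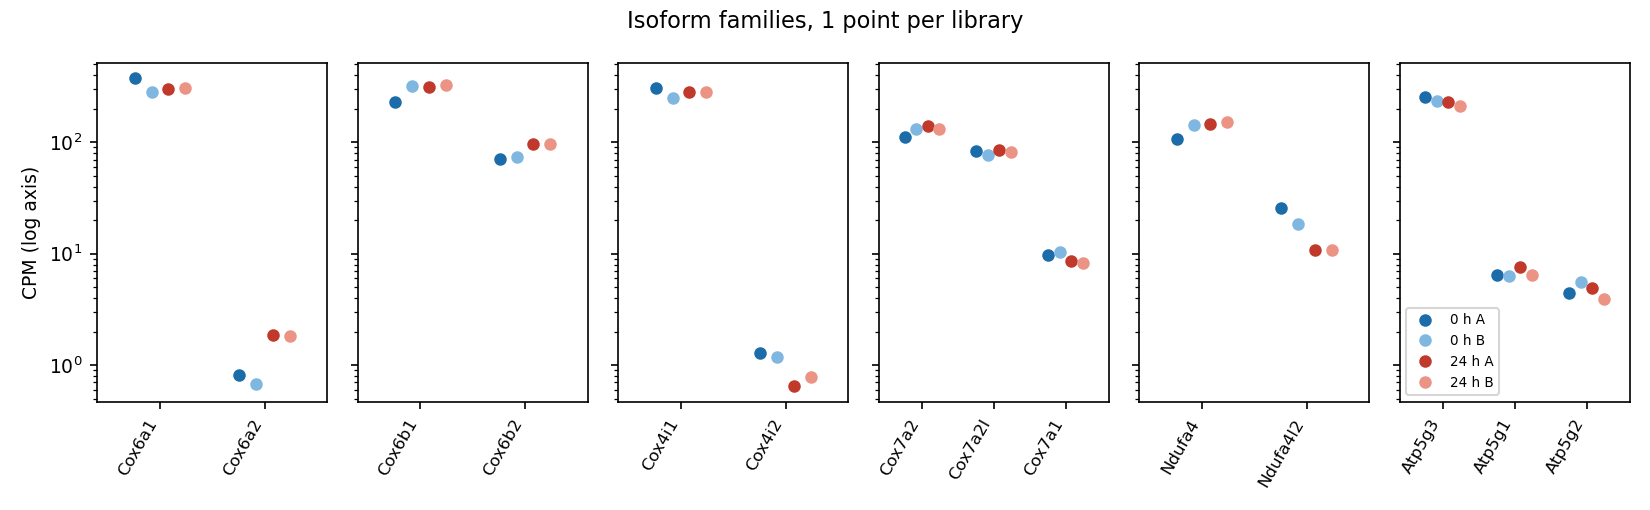
CPM of isoform families (log axis), 1 point per library, blue for 0 h and red for 24 h. The 24 h points of Cox6a2 lie above its 0 h points and those of Ndufa4l2 below, while Cox6a1 overlaps between the groups.

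The other minor isoforms of complex IV were measured at different levels. Cox6b2, known from testis, was at 71.5 and 73.7 CPM at 0 h and 96.0 and 96.9 at 24 h, with replicates close together and no overlap. Its log2 fold change of 0.41 (SE 0.10) narrowly missed the threshold (edgeR adjusted p = 0.0568), and DESeq2 called it higher (adjusted p = 0.0340). Without 0 h A it was 0.39. Per kb of transcript it was 48.7% and 36.1% of the ubiquitous Cox6b1 at 0 h and 48.7% and 47.0% at 24 h, because Cox6b1 was at 232 CPM in 0 h A and at 323, 311 and 326 in the others. Cox7a1, the heart and muscle form, was at 9.84, 10.4, 8.61 and 8.21 CPM (log2 fold change -0.26, edgeR adjusted p = 0.291; -0.30 without 0 h A). Its counterpart Cox7a2 was at 111, 132, 141 and 131 CPM, and Cox7a2l, known from supercomplex assembly, at 84.3, 77.0, 84.8 and 81.5.

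Cox4i2, the lung form, lies just outside the minimum, with a mean of 47.8 counts. Its counts were 65 and 57 at 0 h and 32 and 37 at 24 h, and Cox6a2, with a mean of 63.2 counts, lies just inside. The 24 h counts decided both, since at 0 h both libraries were above 50 for Cox4i2 and below 50 for Cox6a2. The ubiquitous Cox4i1 was at 306, 251, 281 and 280 CPM, a log2 fold change of 0.011 with an interval of -0.27 to 0.29. Without 0 h A it was 0.16. The other rule symbols below 50 counts were Atp5l (mean 19.0), Cox7b2 (16.2), Cox8b, Cox8c and 4 pseudogenes, of which none exceeded a mean of 2.25. Cox8a, the ubiquitous form beside Cox8b and Cox8c, was at 386, 317, 324 and 317 CPM.

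Among the remaining complex IV subunits, Cox5a had the lowest fold change. It was at 270 and 196 CPM at 0 h and 146 and 148 at 24 h, with no overlap, but the gap between the 0 h libraries was wide. The log2 fold change was -0.67 (SE 0.16; adjusted p = 0.0508 in edgeR, 0.00134 in DESeq2). Leaving out 0 h replicate A gave -0.42, and leaving out 0 h replicate B gave -0.88. Of its 50-base stretches 32.0% also occur in another gene, on either strand. The gene sharing the most is Gm26631, whose exons overlap those of Cox5a by 269 bases on the other strand. Gm26631 was at 1.64 and 2.80 CPM at 0 h and 2.23 and 2.35 at 24 h. Part of the count of Cox5a may depend on how such reads were treated. In complex IV as a whole 10 of 15 members had positive fold changes and the median was 0.04. With all 4 libraries and no correction for GC and length, edgeR called no member of complex IV but Cox6a2. DESeq2 called 2 higher and 1 lower, and limma voom 1 higher.

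Complex I, which takes electrons from NADH, showed no common direction, with 18 members above and 18 below 0 and a median of 0.01. Its fold changes ran from -1.03 (Ndufa4l2) to 0.43 (Ndufb4). Ndufa4l2 was placed here by its symbol alone, while its paralog Ndufa4 is counted in complex IV. With all 4 libraries and no correction for GC and length, edgeR called no other member of complex I. The lowest of the others was Ndufs7 at -0.47. Ndufs1, the largest iron-sulfur subunit of the complex, was at 129, 142, 141 and 143 CPM, with 0 h A the lowest, and its log2 fold change was 0.07 (SE 0.10, 95% interval -0.17 to 0.31), and -0.00017 without 0 h A. Ndufs7, which holds the last iron-sulfur cluster before ubiquinone, was at 59.7, 39.4, 35.3 and 36.4 CPM. Ndufv1, which binds NADH and FMN, was at 150, 113, 104 and 103 CPM. In both, the 24 h values were below both 0 h values while 0 h A was far above 0 h B. Their log2 fold changes were -0.47 and -0.35, and neither passed edgeR's test (adjusted p = 0.184 and 0.185). They were -0.14 and -0.13 without 0 h A, and -0.22 and -0.21 after correction for GC and length, where Ndufv1 was called lower. Ndufb4, an accessory subunit, was at 8.26 CPM in 0 h A and at 13.6, 13.6 and 15.8 in the others, and its fold change was 0.11 without 0 h A.

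Complex II has 4 subunits, all nuclear. Sdha, the flavoprotein, was at 288 and 271 CPM at 0 h and 254 and 250 at 24 h, a log2 fold change of -0.15 (SE 0.10, edgeR adjusted p = 0.365; -0.11 without 0 h A). Sdhb, the iron-sulfur subunit, was at 148, 151, 129 and 132 CPM, with replicates closer to each other than the groups were (-0.20, edgeR adjusted p = 0.243; -0.21 without 0 h A). Of the membrane anchors, Sdhc was at 109, 98.9, 106 and 105 CPM and Sdhd at 125, 123, 122 and 119. With all 4 libraries and no correction for GC and length, no member of complex II was called by edgeR, DESeq2 or limma voom. In edgeR 0 then had an unadjusted p under 0.05. After the correction Sdha was called lower (-0.22, edgeR adjusted p = 0.0243). In 3 of the 4 the 24 h values lay below both 0 h values, by small amounts, and in 0 above both. Of all genes tested 29.5% lay below and 29.3% above in this way.

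With all 4 libraries complex III had the lowest median of the 5 complexes, -0.25, with 7 of 9 members negative. Uqcrc1, a core subunit, was at 476, 329, 318 and 313 CPM, and Cyc1, cytochrome c1, at 222, 152, 152 and 143. Uqcrfs1, the Rieske iron-sulfur protein, was at 91.7, 82.5, 74.2 and 71.3. In these members 0 h A was the highest library and 0 h B was close to the 24 h libraries or between. Uqcr11, a small accessory subunit, was at 85.6 in 0 h A and at 42.9, 47.6 and 42.3 in the others, and its log2 fold change went from -0.52 to 0.067 without 0 h A. Without 0 h replicate A the median of complex III was -0.049, above those of complexes V (-0.073) and II (-0.067). After correction for GC and length it was -0.10, above that of complex II (-0.12). Uqcrc1 itself went from a log2 fold change of -0.35 to -0.06 without 0 h A. After correction for GC and length Uqcrc1 was at -0.25 and Uqcrfs1 at -0.32, and both were called lower. With all 4 libraries and no such correction, no member of complex III was called by edgeR, DESeq2 or limma voom. In edgeR 1 then had an unadjusted p under 0.05 (Uqcrfs1).

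Complex V held the most abundant members. Atp5b, the catalytic beta subunit, was at 2707 CPM in 0 h A, 2148 in 0 h B, 1992 in 24 h A and 1960.3 in 24 h B. Atp5a1, the alpha subunit, was at 1822, 1563, 1454 and 1449.8 CPM. Both were lower at 24 h than in either 0 h library, by log2 fold changes of -0.30 (SE 0.12) and -0.22 (SE 0.10), which did not pass edgeR's test (adjusted p = 0.185 and 0.230). Without 0 h replicate A they were -0.12 and -0.11. After correction for GC and length they were -0.38 and -0.21 and both were called lower, as were 15.9% of all genes. Atp5a1 and Atp5b took 72.0% of the summed level of complex V at 0 h, so the sum of the complex (6152, 5297, 4963 and 4931 CPM) follows them, while its median log2 fold change was 0.00. Atp5d, the delta subunit, had 334 CPM in 0 h A and 208, 207 and 197 in the others, with a log2 fold change of -0.42 that was -0.042 without 0 h A. Atp5e, the epsilon subunit, was at 33.5, 37.2, 42.6 and 42.3. With all 4 libraries and no such correction, no member of complex V was called by edgeR, DESeq2 or limma voom. In edgeR 1 then had an unadjusted p under 0.05 (Atp5b).

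Both 24 h libraries lay above both 0 h libraries in 22 members (25.3%) and below in 29 (33.3%). Over all genes tested these shares were 29.3% and 29.5%. The members' counts are near that background in both directions. In complex III there were 0 such members above and 4 below, in complex II 0 and 3, in complex I 14 and 10, in complex IV 3 and 3 and in complex V 4 and 6.

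The 0 h libraries lay further apart than the 24 h libraries, over all genes as well as in the members. In 55 of the 87 members (63.2%; all genes 51.8%) the difference between 0 h A and 0 h B was larger than that between the group means. For the pair at 24 h this held in 16 members (18.4%; all genes 26.2%). The SD of the log2 difference between replicates over the 79 subunits was 0.33 at 0 h and 0.087 at 24 h, and over all genes tested 0.46 and 0.33. Across the subunits, the difference between 0 h A and 0 h B had a Pearson correlation of 0.57 with transcript GC content (n = 79), and that at 24 h one of 0.20. The subunits share the same 4 libraries and are not independent, so this is a description. Over 14301 genes with at least 50 counts on average the value at 0 h was 0.72.

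**Figure D3:**
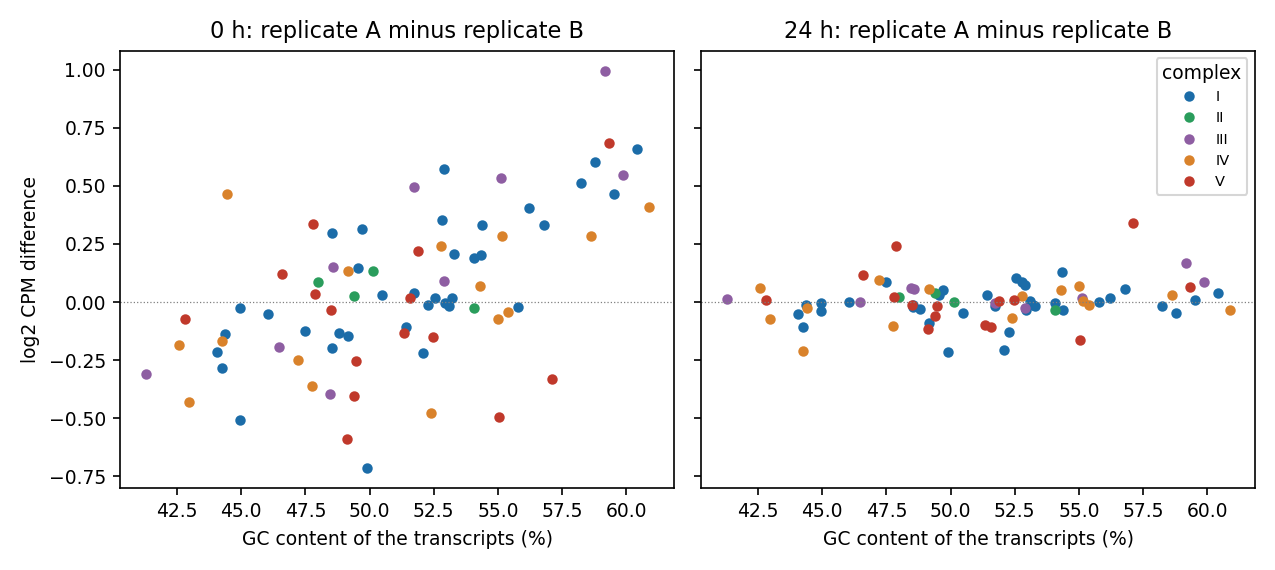
Log2 CPM difference between replicates A and B (y axis) against GC content of the transcripts in percent (x axis) for the 79 subunits, at 0 h (left) and 24 h (right), coloured by complex. At 0 h the points climb with GC content, with Uqcr11 the highest, and at 24 h they lie close to 0.

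Split by GC content, the 26 subunits of highest GC (53.1% to 60.9%) had a median log2 fold change of -0.19, with 20 of 26 negative. The 27 of lowest GC (41.3% to 49.1%) had a median of 0.07, with 9 negative. Without 0 h replicate A these medians were -0.05 and -0.02. The correlation of the fold change with GC content was -0.38 over all 4 libraries and -0.03 without 0 h A. Whether this difference came from the cells or from the library was not tested.

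Counts of calls moved with the same library. Without 0 h replicate A, 21 members were called (24.1%; all genes 32.2%), 9 higher and 12 lower. Without 0 h replicate B, 61 were called (70.1%; all genes 50.2%), 27 higher and 34 lower. These fits leave a single 0 h library, whose own spread they assume to be like that at 24 h. Without 24 h replicate A or B, 1 member was called in each (all genes 3.02% and 2.71%), which was Ndufa4l2. With the GC and length trend removed, 5 members rose (5.75%; all genes 12.0%) and 9 fell (10.3%; all genes 15.9%). The 5 were Atp5s, Cox6a1, Cox6a2, Cox6b2 and Ndufb9, and the 9 were Atp5a1, Atp5b, Cox5a, Ndufa4l2, Ndufs6b, Ndufv1, Sdha, Uqcrc1 and Uqcrfs1. In all of these fits except the one without 0 h replicate B, the share of members called was below that of all genes. Cox6a1 changed direction with the correction, from a log2 fold change of -0.10 to 0.22 (edgeR adjusted p = 0.0135).

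Levels between genes were compared as CPM per kb of transcript, the mean of the 4 libraries. The median was 72.0 in complex I, 95.5 in complex II, 123 in complex III, 216 in complex IV and 140 in complex V. The range within a complex was wide. In complex I it went from 4.18 (Ndufs5) to 272 (Ndufa7), in complex II from 33.0 (Sdhc) to 122 (Sdhb) and in complex III from 57.0 (Uqcrb) to 357 (Uqcr10). In complex IV it went from 1.91 (Cox6a2) to 611 (Cox8a), and in complex V from 1.42 (Atp5g1) to 1149 (Atp5b). The transcript chosen sets some of the low values, since that of Atp5g1 is 4715 bases long for a coding part of 408. Per kb of coding sequence Atp5g1 was at 16.4 CPM.

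**Figure D4:**
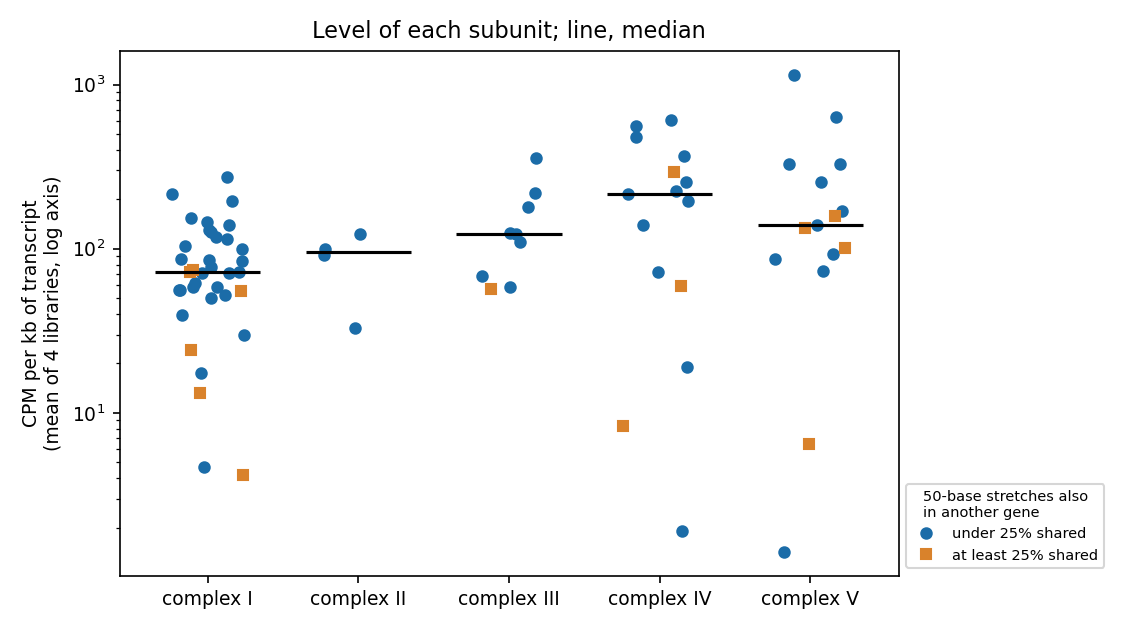
CPM per kb of transcript (log axis, mean of 4 libraries) of the 79 subunits by complex, with the median as a line. Squares mark subunits with at least 25% of their 50-base stretches also in another gene, among them Ndufs5, Cox7c and Atp5g2 near the bottom.

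Low levels coincided with shared sequence in part of the members. In 17 of the 87, at least 25% of the 50-base stretches of the transcript, the length of a read, also occur in another annotated gene, mostly processed copies. For 14 subunits of that kind the median was 58.3 CPM per kb, and for the other 65 it was 110. Atp5g2 shares 87.4% of its stretches and had 4.41, 5.56, 4.93 and 3.89 CPM. Cox7c shares 53.0% and had 4.21, 4.73, 4.19 and 4.85 CPM. Cycs shares 28.5% and had 76 and 126 counts at 0 h and 93 and 109 at 24 h, or 1.5, 2.59, 1.87 and 2.33 CPM. How reads that fit several genes were counted is not given in the sources used here, so these levels are uncertain, and a low one does not show a low transcript level.

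The c-ring of ATP synthase comes from Atp5g1, Atp5g2 and Atp5g3, which encode the same mature protein behind different import sequences. Atp5g3 shares no 50-base stretch and was at 256, 235, 228 and 211 CPM (log2 fold change -0.16, edgeR adjusted p = 0.356; -0.10 without 0 h A). Atp5g1 was at 6.42, 6.28, 7.67 and 6.48 CPM. The last 50 coding bases before the stop codon are shown because they tell the genes apart, with differences from Atp5g3 in capitals.
Atp5g3: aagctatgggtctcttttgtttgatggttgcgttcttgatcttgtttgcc
Atp5g1: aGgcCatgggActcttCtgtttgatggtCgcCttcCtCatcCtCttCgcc
Atp5g2: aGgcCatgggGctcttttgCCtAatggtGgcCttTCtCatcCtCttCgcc
Atp5g1 differs from Atp5g3 at 11 of these positions and Atp5g2 at 14.

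With all 4 libraries the 6 processed pseudogenes had no positive fold change, with a median of -0.26 and a range from -0.59 (Cox6c2) to -0.045 (Atp5k-ps2). Without 0 h A the median was -0.18, and the range went from -0.36 (Uqcrh-ps1) to 0.074 (Ndufa11b). With all 4 libraries and no correction for GC and length, none of the 6 was called by edgeR, DESeq2 or limma voom. In edgeR 2 then had an unadjusted p under 0.05, as did 4642 of the 18005 genes tested. After the correction Ndufs6b was called lower. Ndufs6 encodes a subunit of the matrix arm of complex I, and its processed copy Ndufs6b was at 80.1, 73.6, 64.2 and 64.8 CPM. It was thus counted above Ndufs6 itself, at 44.6, 44.8, 41.8 and 42.8. The aligned bases of the pair are 96.5% identical, with an identical run of 82, longer than a read. A stretch near the end of the coding part shows this, with 0 differences.
Ndufs6: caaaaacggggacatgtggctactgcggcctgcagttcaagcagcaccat
Ndufs6b: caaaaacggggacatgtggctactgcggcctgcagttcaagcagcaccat
Whether the reads counted on Ndufs6b came from its own transcript cannot be told from the counts. Atp5s, the coupling factor, was at 9.15, 14.1, 15.8 and 18.2 CPM (log2 fold change 0.54, edgeR adjusted p = 0.173; 0.26 without 0 h A).

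Among the 13 subunits encoded in mitochondrial DNA, 9 were tested and 1 rose in edgeR and in limma voom. In edgeR 5 had an unadjusted p under 0.05, as did 4642 of the 18005 genes tested. DESeq2 called 3 higher and 1 lower. After correction for GC and length edgeR called 4 higher (mt-Nd1, mt-Nd2, mt-Nd4 and mt-Cytb) and 1 lower (mt-Co1), where 12.0% of all genes were called higher and 15.9% lower. mt-Nd2, a complex I subunit, went from 1667 and 2808 CPM at 0 h to 4588 and 5172 at 24 h, a log2 fold change of 1.12 (SE 0.22, edgeR adjusted p = 0.0320), or 0.80 without 0 h A. mt-Co1, the catalytic subunit of complex IV, was at 9461 and 12546 CPM at 0 h and 7065 and 7931 at 24 h, with no overlap, and did not pass the test with all 4 libraries (-0.55, edgeR adjusted p = 0.0659; -0.74 without 0 h A). Of its 50-base stretches 51.1% occur in another gene. mt-Cytb, of complex III, was at 2701, 3878, 5044 and 5706 CPM (0.71, edgeR adjusted p = 0.0533), and mt-Nd1 at 3110, 4680, 5973 and 6526 (0.68, edgeR adjusted p = 0.0714). Without 0 h A these were 0.47 and 0.42. These mRNAs, all encoded in the same small genome, had log2 fold changes of unlike sign, below 0 for mt-Co1 and above 0 for mt-Nd1, mt-Nd2 and mt-Cytb. In mt-Nd1, mt-Nd2 and mt-Cytb 0 h A was again the lowest library.

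Several mitochondrial genes were counted at or near 0, which bears on how the table was made. mt-Co2 had 7, 0, 6 and 14 counts, mt-Co3 7, 8, 13 and 11, and mt-Atp6 11, 11, 1 and 8. mt-Nd3 and mt-Nd4l had 0 counts in every library, an upper limit of 0.0572 to 0.0652 CPM by library (3 counts, for counting error only). Of their 50-base stretches 98.0% to 100% occur also in annotated nuclear copies such as Gm28661 and Gm28437, while mt-Nd1 and mt-Cytb share 0%. mt-Atp8 had 3 counts in 24 h A and 0 in the others, and shares 0%. It runs from 7766 to 7969 and overlaps mt-Atp6 by 43 bases, and the way such reads were counted is not given. Most of mt-Atp8 lies outside that overlap, and the cause of its low counts was not tested.

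**Figure D5:**
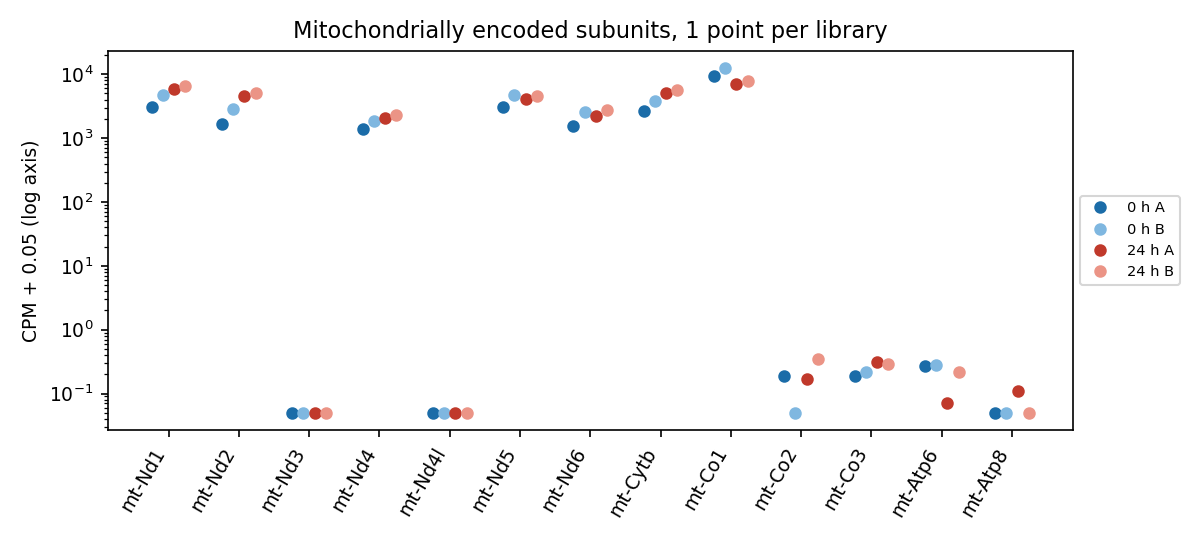
CPM + 0.05 (log axis) of the 13 mitochondrially encoded subunits, 1 point per library, blue for 0 h and red for 24 h. mt-Co1 is the highest at 0 h, 6 genes lie near 0, and mt-Nd2 has both red points above both blue points.

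Few genes that serve the chain were called by edgeR with all 4 libraries, where 4.15% of all genes rose and 2.65% fell. In that fit 4642 of the 18005 genes tested had an unadjusted p under 0.05. The lists were chosen with earlier results of these data known, so the counts are descriptions. The list of complex I assembly factors, which also held the subunit gene Ndufab1, had 16 genes tested. Of these edgeR called 0 in either direction, as did DESeq2 and limma voom. In edgeR 1 had an unadjusted p under 0.05 (median log2 fold change 0.058, and -0.00080 without 0 h A). The list of assembly factors of complexes II, III and V had 14 genes, among them the inhibitor gene Atpif1, and 1 rose. This was Lyrm7, which guides the Rieske protein into complex III, from 5.42 and 7.16 CPM to 10.8 and 12.1 (log2 fold change 0.87, edgeR adjusted p = 0.0386, and 0.68 without 0 h A). Of 22 complex IV assembly factors tested, 0 were called by edgeR, DESeq2 or limma voom, and 1 had an unadjusted p under 0.05 (median -0.10; -0.017 without 0 h A).

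Of 16 regulators of mitochondrial gene expression tested, edgeR called 0, limma voom 0 and DESeq2 2 (both lower), with 4 at an unadjusted p under 0.05 in edgeR and a median of -0.15 (-0.14 without 0 h A). Of 14 citric acid cycle genes, edgeR called 0, limma voom 0 and DESeq2 1 (lower), with 1 at an unadjusted p under 0.05 and a median of -0.062 (-0.071 without 0 h A). A further list of 9 genes held Slc25 carriers, Ucp2, the Vdac genes and Ckmt1, mitochondrial creatine kinase. Of these, Ckmt1 fell, from 47.4 and 38.7 CPM to 26.4 and 25.9 (log2 fold change -0.72, edgeR adjusted p = 0.0291, and -0.57 without 0 h A). It was the 1 gene of that list called by edgeR. The ATP carrier gene Slc25a4 was at 248, 204, 167 and 164 CPM and did not pass the test (-0.45, edgeR adjusted p = 0.0759; -0.30 without 0 h A). More were called after correction for GC and length, where 15.9% of all genes were lower. Then 6 of the 16 regulators, 5 of the 14 citric acid cycle genes and 3 of the 9 genes in the list with Ckmt1 were lower. In the same lists 1, 0 and 0 were higher. In the assembly factor lists of complex I, of complexes II, III and V, and of complex IV, 1, 2 and 1 genes were then higher and 1, 1 and 3 lower.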

How the data were processed

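The authors deposited raw counts of reads for each Ensembl gene, made from stranded mRNA libraries read as single 50-base reads, per the labels' protocols. TopHat2, HTSeq, DESeq and the build mm10 are named in the submitters' processing notes, with no version or role. Which annotation release and strand setting were used, and how reads that fit several genes were treated, is not given in the sources used here, so reads of genes that overlap cannot be told apart. Symbols and positions came from GENCODE M21 (GRCm38), where 563 identifiers had no match.

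Genes were kept with filterByExpr (minimum count 10, total 15; 18005 genes), scaled by TMM and tested with edgeR 4.0.16 (quasi-likelihood, 2-sided, R 4.3.3, Benjamini-Hochberg, threshold 0.05) over the whole table. CPM were computed here from the deposited counts. SE and intervals derive from the quasi-likelihood F statistic. P-values measure the spread between 2 libraries a group, which the series text calls biological replicates. Alternatives were DESeq2 1.42.0, limma 3.58.1 voom, other scalings and filters, a GC and length trend (mgcv 1.9.3), a block for the replicate letter, and leaving out each library. Matches of 50 bases were sought on either strand, in annotated transcripts only, using for each member the transcript with the longest coding part.

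The members and gene lists were chosen with earlier results of these data known. Named genes are the 4 markers (Ndufs1, Sdha, Uqcrc1 and Cox4i1), members past the test, in each complex the 3 with the smallest p and the extremes of fold change and level, the isoform families, the Sdh genes, Cyc1, Cycs, symbols near the 50-count minimum, and up to 6 called genes a list. Others (Ndufa4, Ndufs6, Ndufs6b, Cox7c, Atp5s and the overlap partners) were chosen after their values were seen. Figures used matplotlib 3.10.9.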

Additional observations from a re-analysis of the deposited data

How the results depend on the processing

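The calls of Cox6a2 (higher) and Ndufa4l2 (lower) held under each alternative test, scaling, filter and correction run, and with each library left out, except that Cox6a2 was lost without either 24 h library. The number of members called higher, 1 in the main test, was 2 with DESeq2, upper quartile scaling, library size alone and no filter, and 5 after correction for GC and length. The number called lower, also 1, was 2 with DESeq2, DESeq2 size factors, upper quartile scaling and a minimum mean of 50 counts, 4 with no filter and 9 after correction for GC and length. Over all genes, 748 were called higher and 477 lower, against 2162 and 2859 after that correction, 943 and 958 with DESeq2 and 1230 and 1359 with no filter. Leaving out 0 h A gave 3085 and 2955, leaving out 0 h B 4352 and 5064, leaving out 24 h A 368 and 195, and leaving out 24 h B 338 and 168. With a library left out, members called higher numbered 0 to 27 and lower 1 to 34, the highest without 0 h replicate B; the cause was not tested.

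The letters A and B appear in both groups' titles, but the A minus B differences at 0 h and at 24 h had a correlation of 0.065 over 18005 genes, and the labels name no culture or day shared by a letter. With the replicate letter as a block, 4 members were called higher and 6 lower (all genes 1658 and 1595), and the members' median was -0.028. With the block and the GC and length correction together these were 8 and 14 members (all genes 2726 and 3592), and the median was -0.051 for the members, -0.0030 for complex I and -0.10 for complex III.

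The members' median of -0.039 was -0.026 with limma voom, 0.0062 with upper quartile scaling, 0.019 with library size alone, -0.055 with no filter, -0.054 after the correction and -0.0057 over protein-coding subunits. It was -0.023 over members with under 25% shared stretches, a choice made after seeing the data. Complex I's 0.011 was 0.053 with upper quartile scaling, 0.067 with library size alone, -0.0072 with no filter and -0.0075 after the correction. It was 0.028 with Ndufa4 counted in complex I, and 0.028 with Ndufa4l2 counted in complex IV, which was also chosen after seeing the data. Complex II was at -0.051 with upper quartile scaling and -0.038 with library size alone, complex III at -0.10 after the correction, complex IV at 0.12 over members with under 25% shared stretches, and complex V at 0.052 with library size alone. Upper quartile scaling and library size alone moved the median of all genes to 0.04 and 0.05.

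With a library left out the medians ran from -0.056 to -0.020 for the members, -0.039 to 0.040 in complex I, -0.13 to -0.067 in II, -0.34 to -0.049 in III, 0.017 to 0.097 in IV and -0.073 to 0.080 in V. Cox6a1 turned from -0.10 to 0.22 after the correction, also 0.22 with the block added, and ran from -0.29 to 0.12 with a library left out. Cox4i1 ran from -0.13 to 0.16 with a library left out. In edgeR both were past the test at each of these values other than -0.10; the cause was not tested.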
